A study of Mus musculus with 18 samples.

Results

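The wild-type regulatory T (Treg) cell programme is described here as the difference between 7 arrays of wild-type Treg cells and 2 arrays of conventional CD4 T (Tconv) cells, 9 of the 18 arrays of the series. The arrays were chosen by their labels alone. Each carries RNA of CD4+ cells sorted from lymph nodes and spleen of B6;129 mice that are heterozygous for 2 reporter alleles of Foxp3, one marked with human CD2 (hCD2) and one with GFP. The Tconv arrays (2) hold cells negative for both reporters from FoxP3WT:hCD2/WT:GFP mice. The same genotype gave GFP+ Treg cells (2 arrays) and hCD2+ Treg cells (2 arrays), and FoxP3A384T:hCD2/WT:GFP mice gave GFP+ Treg cells (3 arrays), whose own Foxp3 is wild type. Cells went straight from the animal to RNA extraction with no treatment. All groups, Tconv included, carry modified Foxp3 alleles. The labels give no age, name no gate that separates naive from memory cells, and do not say whether arrays came from separate animals, and the p values therefore speak only of the spread between these samples.

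Treg cells restrain other immune cells. Foxp3, a forkhead transcription factor encoded on the X chromosome, is needed for their identity, and they depend on IL-2, which they bind through the high-affinity receptor built from Il2ra, Il2rb and the common gamma chain. Surface receptors such as Ctla4, the ectoenzymes Entpd1 and Nt5e that make adenosine, and secreted or activated cytokines are among the means by which they act. Since the sort used reporters on Foxp3 itself, the Foxp3 value checks the labels and is no finding.

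Array values below are on the log2 scale, with 0 at the mean of both Tconv arrays, so the level of each gene is lost and nothing can be said of which genes are near background. For the Treg arrays the lowest, median and highest of the 7 are given. Differences are log2 differences ± SE from a limma fit, Treg minus Tconv, and a gene was called at an adjusted p under 0.05 over 18193 genes. All adjusted p are limma's.

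Foxp3 read 7.06, 7.42 and 7.59 on the Treg arrays and -0.07 and 0.07 on the Tconv arrays, a 166-fold difference (7.37 ± 0.17, adjusted p = 2.77e-12). Il2ra, the chain that gives the IL-2 receptor its high affinity, read 5.20, 5.45 and 5.55 against -0.16 and 0.16 (5.39 ± 0.16). Ikzf2, which encodes the transcription factor Helios, read 4.56, 4.76 and 4.89 against 0.02 and -0.02 (4.76 ± 0.14). All of these markers were higher on every Treg array than on either Tconv array, as the labels of the arrays say. Of 8 measured T cell genes, among them Cd4 (-0.05 ± 0.27) and Cd3e (0.31 ± 0.17), none was called.

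The promoters of 4 genes are shown because the results below return to them: Foxp3 with the largest increase, Ccdc22, the neighbour whose gene body overlaps that of Foxp3, and Il1r2 and Dapl1, genes with a large increase and a large decrease. Each line holds the 250 bases before the RefSeq start (GRCm38.p6), read 5′ to 3′ on the strand of the gene. Capitals mark matches to a forkhead (TGTTTAC), STAT (TTCNNNGAA) or AP-1 (TGANTCA) motif on either strand.
Foxp3, chrX:7579426-7579675, plus strand: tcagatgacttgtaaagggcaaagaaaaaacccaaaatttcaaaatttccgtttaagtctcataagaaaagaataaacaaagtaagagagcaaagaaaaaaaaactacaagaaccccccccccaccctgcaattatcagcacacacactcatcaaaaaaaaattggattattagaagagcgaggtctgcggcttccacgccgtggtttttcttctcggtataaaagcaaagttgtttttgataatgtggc
Ccdc22, chrX:7605421-7605670, minus strand: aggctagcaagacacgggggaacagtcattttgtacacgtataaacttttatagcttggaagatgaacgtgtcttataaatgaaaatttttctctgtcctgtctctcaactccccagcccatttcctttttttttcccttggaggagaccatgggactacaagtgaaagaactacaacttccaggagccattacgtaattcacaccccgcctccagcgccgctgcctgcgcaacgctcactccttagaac
Il1r2, chr1:40085843-40086092, plus strand: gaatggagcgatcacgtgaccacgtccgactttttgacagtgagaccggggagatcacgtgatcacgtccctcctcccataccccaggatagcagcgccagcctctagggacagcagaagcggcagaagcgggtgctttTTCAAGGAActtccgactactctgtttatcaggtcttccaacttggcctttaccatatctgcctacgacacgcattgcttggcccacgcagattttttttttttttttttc
Dapl1, chr2:59484403-59484652, plus strand: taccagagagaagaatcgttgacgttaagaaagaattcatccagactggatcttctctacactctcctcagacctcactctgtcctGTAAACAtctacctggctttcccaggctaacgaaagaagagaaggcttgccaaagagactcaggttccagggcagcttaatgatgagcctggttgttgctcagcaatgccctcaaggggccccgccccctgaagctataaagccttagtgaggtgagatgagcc
These windows hold a STAT match in Il1r2 and a forkhead match in Dapl1, and none of these letters in Foxp3 or Ccdc22. Promoters were matched by symbol for 39 of the 60 genes with the largest changes and for 14452 genes in all. Of those 39, only Dapl1 had a forkhead match and only Il1r2 and Sgk1 a STAT match, so the printed matches are not typical. The forkhead letters occurred in 2.51% of all these promoters, in 2.96% of the genes called higher and in 2.15% of those called lower. For the STAT letters the shares were 6.3%, 7.39% and 5.5%, and for AP-1 they were 5.58%, 6.05% and 5.02%. An ETS motif (CCGGAAGT) was in 4.46% of all promoters and in 2.15% of the promoters of either called set. The motifs do not contain each other. These shares describe a short window and say nothing of whether a factor binds there.

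Across all genes, 951 were called higher in Treg cells (5.23%) and 515 lower (2.83%), together 1466 (8.06%). The median difference was 0.999 among the genes called higher and -0.74 among those called lower, while over all genes it was -0.02. More than 2-fold differences were seen in 475 of the genes called higher and in 157 of those called lower. Differences above 16-fold were seen in 12 and 5. In 930 of the 951 and 494 of the 515 called genes the 7 Treg arrays lay wholly on one side of both Tconv arrays, which was so for 10.3% (above) and 9.37% (below) of all genes. Among called genes, the increases were thus more numerous and had the larger median, though both medians are over genes chosen by their call.

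Among fits that left out 1 array, those without a Tconv array had the lowest counts. Without Tconv replicate 1 the counts were 608 higher and 371 lower, and without Tconv replicate 2 they were 523 and 219. Of the called genes, 379 of those higher (2.08% of all genes) and 142 of those lower (0.781%) were called in each of the 9 fits that left out 1 array. Below, such genes are called stable to leaving out an array, and for a named gene that is not, the adjusted p without its least favourable array is given. The deviations of the arrays from their group means were not independent: Tconv and GFP Treg arrays of equal number from wild-type mice correlated at 0.711 across genes, and Tconv replicate 1 with hCD2 Treg replicate 3 at 0.721. In groups of 2 the other array mirrors these values. For GFP Treg arrays of A384T mice the correlations with Tconv replicate 1 lay between -0.076 and 0.099. The SE and p values ignore this.

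**Figure D1:**
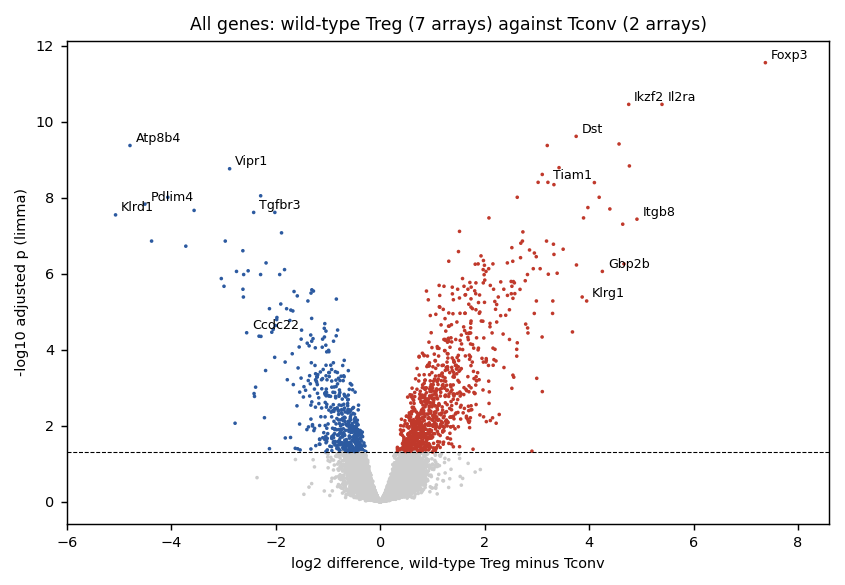
Each point is 1 of 18193 genes, placed by its log2 difference between wild-type Treg (7 arrays) and Tconv (2 arrays) on the x axis and by -log10 of limma's adjusted p on the y axis. Red points are the 951 genes called higher, blue points the 515 called lower, grey points genes not called, and the dashed line is an adjusted p of 0.05. Foxp3 stands alone at 7.37, and the largest decrease is Klrd1 at -5.07.

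The largest changes below are ranked among called genes with no overlap between Treg and Tconv arrays, so their separation was a condition. Itgb8 and Itgae followed Foxp3 and Il2ra in the order of increases. Itgb8, an integrin chain that takes part in activating TGF-beta, read 4.56, 4.92 and 5.45 on Treg arrays and -0.15 and 0.15 on Tconv arrays (4.91 ± 0.29, 30.2-fold). Itgae, the integrin chain also called CD103, read 4.13, 4.85 and 5.17 against -0.07 and 0.07 (4.77 ± 0.20). Both were far above both Tconv arrays on every Treg array. The zinc finger factor Plagl1 had a difference of 4.67 ± 0.35, the MAP kinase phosphatase Dusp4 4.64 ± 0.28, the cytokine signalling inhibitor Socs2 4.57 ± 0.17 and the semaphorin and VEGF receptor Nrp1 4.40 ± 0.24.

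Beyond the best known Treg genes, the 30 largest increases held members with other roles. Gbp2b, an interferon-inducible guanylate-binding protein, read 3.79, 4.27 and 4.61 against 0.15 and -0.15 (4.25 ± 0.33, 19.1-fold). Gsta4, a glutathione transferase that acts on lipid peroxidation products, was 14.8-fold higher (3.89 ± 0.22). Dst, which encodes the cytoskeletal linker dystonin, read 3.50, 3.76 and 3.96 against 0.15 and -0.15 and had one of the smallest standard errors of these genes (3.75 ± 0.13). Osbpl3, a lipid-binding protein of the oxysterol-binding family, differed by 3.32 ± 0.22. Sh3bgrl2 (3.76 ± 0.28), Tmem158 (3.20 ± 0.12) and the unnamed transcript D630039A03Rik (3.42 ± 0.15) were of like size.

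The largest decrease was in Klrd1, the lectin-like receptor CD94, which read -5.80, -5.01 and -4.69 on Treg arrays and -0.30 and 0.30 on Tconv arrays (-5.07 ± 0.29, 33.6-fold lower, adjusted p = 2.82e-08). Atp8b4, a member of the P4 family of lipid flippases, read -5.03, -4.83 and -4.58 against -0.16 and 0.16 (-4.79 ± 0.18). Pdlim4, an adaptor of the actin cytoskeleton, read -4.76, -4.45 and -4.27 against 0.36 and -0.36 (-4.51 ± 0.24). These decreases exceeded 16-fold, and no Treg array came near a Tconv array. App, the amyloid precursor protein, differed by -4.38 ± 0.28, and Lypd6b, a Ly6 family protein, by -4.07 ± 0.21. The cyclic nucleotide phosphodiesterase Pde3b differed by -3.72 ± 0.25 and the heparan sulfate sulfotransferase Hs3st3b1 by -3.57 ± 0.20.

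Vipr1, a receptor for vasoactive intestinal peptide, read -3.14, -2.91 and -2.58 against 0.11 and -0.11 (-2.89 ± 0.12). Dapl1 read -3.34, -2.94 and -2.77 against 0.00 and 0.00 (-2.99 ± 0.26). Il1rl2, a receptor for IL-36 cytokines, read -3.11, -2.94 and -2.85 against 0.04 and -0.04 (-2.97 ± 0.19). Mctp2 (-2.75 ± 0.22), the gamma-glutamyltransferase family member Ggt5 (-2.63 ± 0.18), the monocarboxylate transporter family member Slc16a5 (-2.63 ± 0.23), Afp (-2.62 ± 0.24) and Ntrk3 (-2.53 ± 0.20) followed. Of the 60 largest changes, 56 were stable to leaving out an array. The exceptions were H2-Aa, Rgcc and A530021J07Rik, with adjusted p of 0.288, 0.0513 and 0.0813 without Tconv replicate 2, and Tmie, with 0.129 without Tconv replicate 1.

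**Figure D2:**
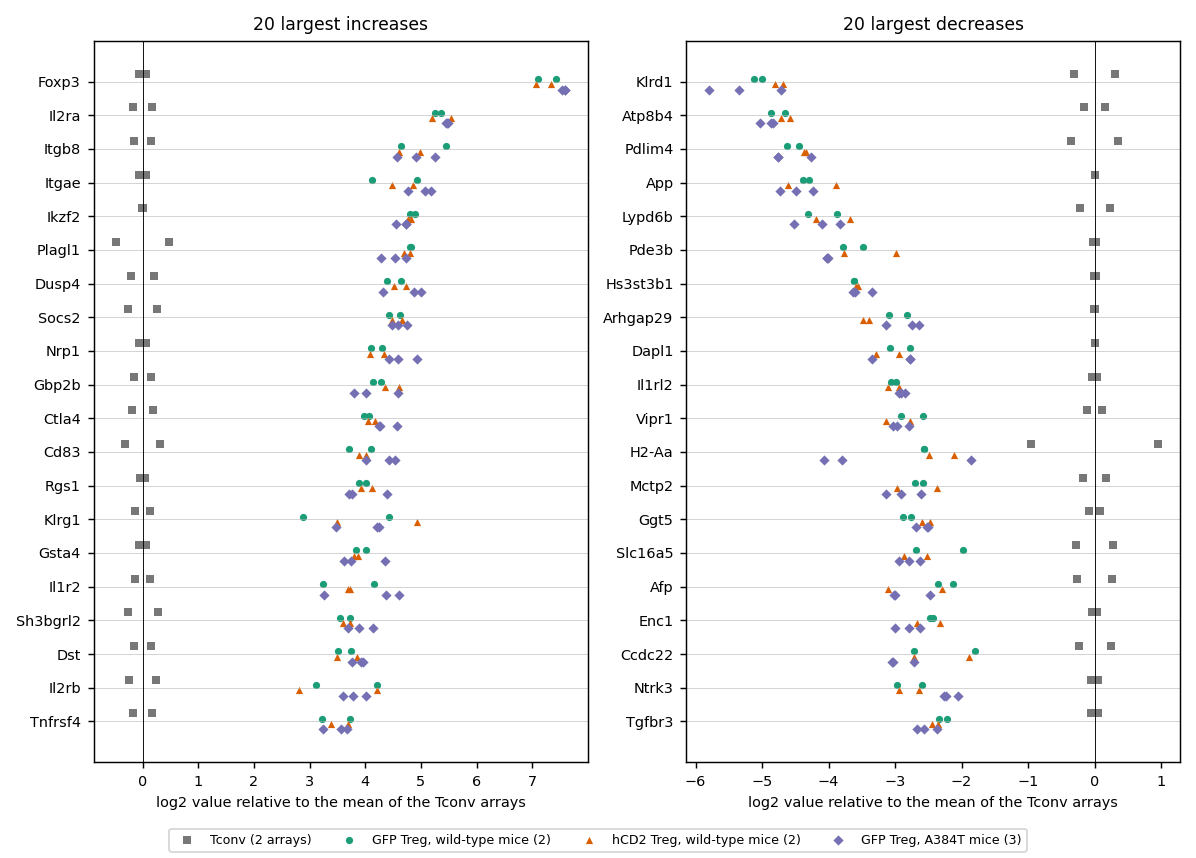
Each row is a gene, the x axis is the log2 value with the Tconv mean at 0, and each point is 1 array, coloured by group. The 20 largest increases are on the left and the 20 largest decreases on the right. Only called genes whose Treg and Tconv arrays do not overlap were ranked, so the separation in every row follows from that choice. H2-Aa has the widest Tconv spread, -0.95 and 0.95.

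Ccdc22 stood among the large decreases, and its gene body overlaps the end of Foxp3 on the opposite strand in RefSeq. It encodes a subunit of a complex that sorts proteins in endosomes. Its value was -3.05, -2.72 and -1.79 on the Treg arrays against -0.24 and 0.24 on the Tconv arrays (-2.56 ± 0.29, 5.89-fold lower), so the neighbours with the largest increase and one of the larger decreases lie side by side. A second probe set of Ccdc22 was also called lower, by a smaller amount (-0.48 ± 0.11, adjusted p = 0.0134 over probe sets). Both probe sets are of a class that may bind related transcripts, as their suffix in the chip's naming shows, and their position relative to the overlap was not analysed here. Foxp3 had 1 probe set.

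Genes were then grouped by role, and each list was read against the background of 8.06% of genes called, 5.23% higher and 2.83% lower. Several lists hold known Treg genes, such as Ctla4 and Tnfrsf4, and the lists were chosen with earlier results of these data known. Of 3465 genes in a list, 343 were higher and 142 lower, against 608 and 373 of 14728 genes in no list. A share above 8.06% may thus reflect how a list was made, which was not tested. The Treg list of 24 known Treg genes, which includes the markers, was chosen for such genes, so its 24 of 24 called higher are no independent evidence; all 24 were stable to leaving out an array. Among the less prominent members were the opioid precursor Penk (3.39 ± 0.27), the orphan receptor Gpr83 (3.10 ± 0.36), the actin capping protein Capg (3.06 ± 0.24) and Swap70 (2.95 ± 0.21).

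**Figure D3:**
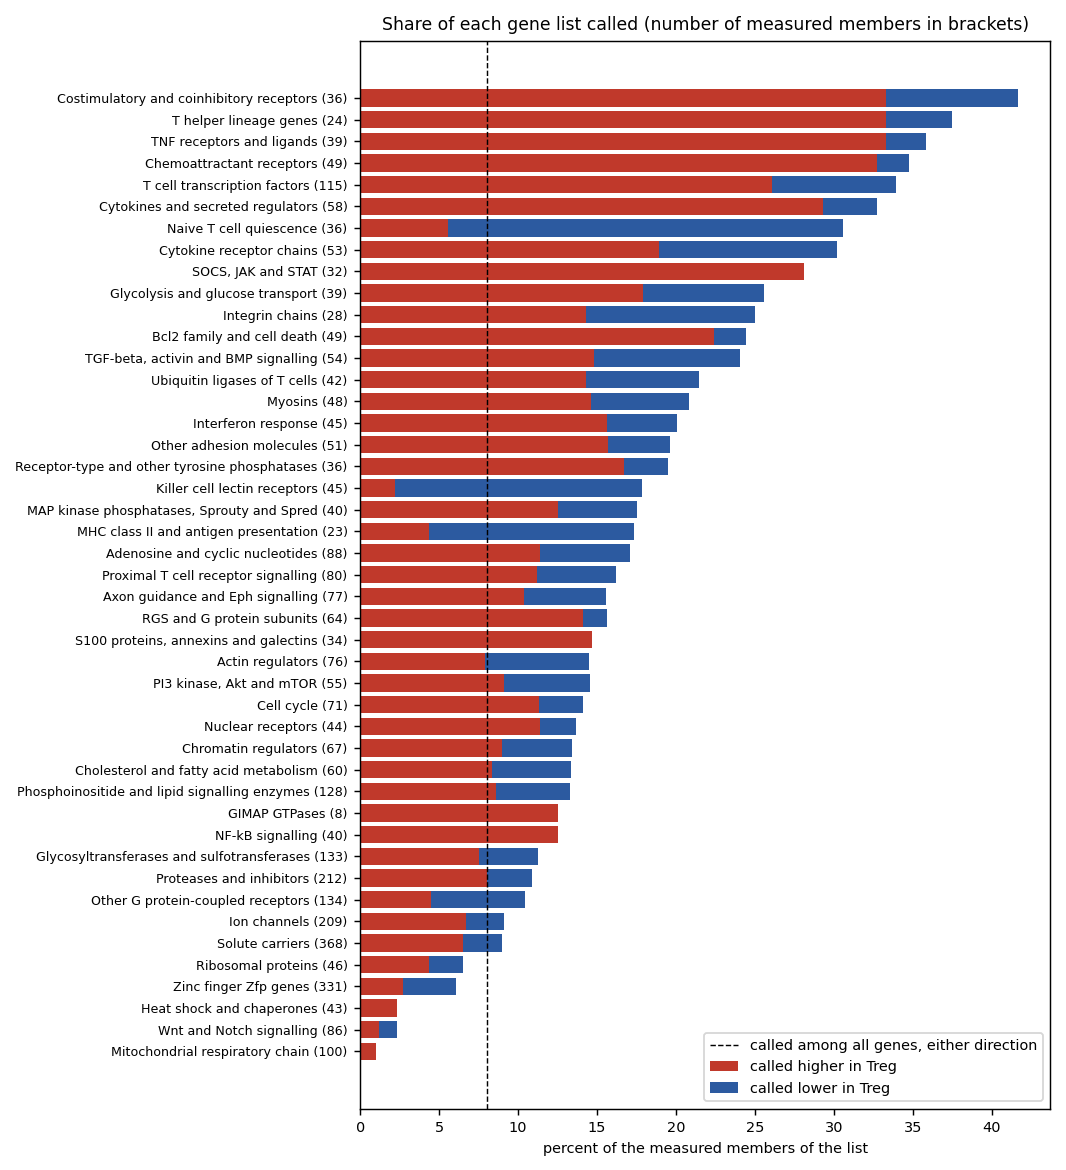
Bars give, for each gene list other than that of known Treg genes and 1 not reported here, the percent of its measured members called higher (red) and lower (blue) in wild-type Treg than in Tconv cells, with the number of measured members in brackets. The dashed line is the 8.06% called among all genes. Costimulatory receptors lead with 41.7%, and the mitochondrial respiratory chain is lowest with 1.0%.

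Of 115 T cell transcription factors, 30 were higher and 9 lower, 33.9% in all, and the median of the list was 0.32. Ahr, the aryl hydrocarbon receptor, read 2.07, 2.61 and 3.04 against -0.55 and 0.55 (2.62 ± 0.32), and Maf read 1.69, 2.73 and 3.07 against 0.05 and -0.05 (2.47 ± 0.29). Hopx, a homeodomain-only protein, differed by 2.54 ± 0.38. The Ikaros family member Ikzf4 was higher by 3.32 ± 0.16, Irf4 by 1.97 ± 0.27, the repressor Gfi1 by 1.52 ± 0.09 and the Myc antagonist Mxd1 by 1.22 ± 0.10. Gfi1 and Mxd1 had the smaller changes but also narrow spreads, with Gfi1 at 1.44, 1.48 and 1.67 against -0.02 and 0.02.

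The factors that fell included Epas1, a hypoxia-inducible factor, with -2.27, -1.74 and -1.33 against -0.06 and 0.06 (-1.78 ± 0.28), and Eomes, a T-box factor of cytotoxic lymphocytes, with -1.44, -1.26 and -0.85 against 0.04 and -0.04 (-1.22 ± 0.18). Zbtb16, the factor PLZF of innate-like T cells, differed by -1.09 ± 0.16, and Ikzf1 by -0.69 ± 0.10. In all, 16 of the 39 called factors were stable to leaving out an array. Gata3 (1.19 ± 0.23; adjusted p = 0.1 without Tconv replicate 2), Batf (1.17 ± 0.23; 0.0901 without the same array) and Prdm1 (0.96 ± 0.19; 0.0763 without Tconv replicate 1) were not. The nuclear receptors had 5 of 44 higher and 1 lower, led among the stable ones by the retinoic acid receptor Rarg (1.46 ± 0.21) and its partner Rxra (0.999 ± 0.17).

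Chromatin regulators had 6 of 67 higher and 3 lower (13.4%). The histone deacetylase Hdac9 read 0.78, 1.25 and 1.79 against -0.10 and 0.10 (1.28 ± 0.17), and the chromatin remodeller Chd7 read -1.86, -1.53 and -1.03 against 0.19 and -0.19 (-1.52 ± 0.23). They were the stable calls of this list, and moved in opposite directions. The zinc finger Zfp genes, 331 in number, had 9 higher and 11 lower, 6.04%, below the share of all genes.

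Receptors of the cell surface held some of the highest shares of called genes. Of 36 costimulatory and coinhibitory receptors and ligands, 12 were higher and 3 lower (41.7%), and 9 of these calls were stable. Ctla4 read 3.98, 4.18 and 4.57 against 0.19 and -0.19 (4.19 ± 0.21), and the activation molecule Cd83 read 3.71, 4.02 and 4.54 against -0.31 and 0.31 (4.10 ± 0.19). Both lay well apart from Tconv on every array. Pdcd1, the receptor PD-1, was higher by 2.52 ± 0.22, its ligand Pdcd1lg2 by 2.02 ± 0.16 and its other ligand Cd274 by 0.58 ± 0.11. Cd86, a ligand of Ctla4 and Cd28, read 1.54, 1.72 and 1.97 against -0.18 and 0.18 (1.72 ± 0.14). The collagen-binding inhibitory receptor Lair1 went the other way, at -1.94, -1.67 and -1.32 against 0.00 and 0.00 (-1.65 ± 0.15). The inhibitory receptor Lag3 was not called (1.13 ± 0.40, adjusted p = 0.113), and its Treg arrays ran from 0.32 to 1.79.

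The TNF family had 13 of 39 members higher and 1 lower, with 6 of the 14 calls stable. The receptors Tnfrsf4 (OX40, 3.50 ± 0.24), Tnfrsf9 (4-1BB, 3.30 ± 0.34), Tnfrsf1b (TNFR2, 2.37 ± 0.34) and Tnfrsf18 (GITR, 2.23 ± 0.24) led. Among ligands, Tnfsf11 (RANKL) was higher by 1.76 ± 0.24 and Tnfsf10 (TRAIL) by 1.09 ± 0.14. The exception was Fasl, the ligand of the death receptor Fas, which was lower (-1.54 ± 0.26) but had an adjusted p of 0.0589 without Tconv replicate 2.

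Cytokine receptor chains split, with 10 of 53 higher and 6 lower and 8 of 16 calls stable. Il1r2, the decoy receptor for IL-1 whose promoter is printed above, read 3.24, 3.72 and 4.60 against -0.13 and 0.13 (3.87 ± 0.36, 14.6-fold). Il2rb, the beta chain of the IL-2 receptor, read 2.81, 3.78 and 4.22 against 0.24 and -0.24 (3.68 ± 0.42). The Treg arrays of these genes were spread over more than 2-fold yet stayed above both Tconv arrays. Il12rb1 was higher by 1.63 ± 0.15 and Il10ra by 1.48 ± 0.13. On the other side stood Il1rl2, given above, and Il7r, the IL-7 receptor, at -1.56, -1.41 and -0.64 against -0.11 and 0.11 (-1.33 ± 0.28), whose adjusted p was 0.122 without Tconv replicate 2.

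In the SOCS, JAK and STAT list, 9 of 32 genes were higher and none lower, with a list median of 0.45. The list also holds the receptor chains Il2ra and Il2rb, so its counts are not only of genes downstream of receptors. Medians above 0 also occurred in lists with few calls, such as 0.25 for heat shock genes and 0.23 for the 8 T cell genes. Ion channels (-0.07) and Zfp genes (-0.09) had medians below 0. Whether the median of the SOCS, JAK and STAT list differs from these was not tested. Socs2 read 4.42, 4.59 and 4.76 against -0.27 and 0.27, and Cish, another inhibitor of cytokine signalling, was higher by 2.72 ± 0.18. Stat5a, a STAT of the IL-2 pathway, was not called (1.12 ± 0.47, adjusted p = 0.192). Of the 9 calls, 4 were stable, and Il2ra and Il2rb were among these 4.

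Among 58 cytokines and secreted regulators, 17 were higher and 2 lower (32.8%), and 12 calls were stable. Ebi3, a subunit of IL-27 and IL-35, read 2.73, 3.10 and 3.68 against -0.43 and 0.43 (3.22 ± 0.26). Matn2, a matrix protein, was higher by 2.83 ± 0.32, Fgl2 by 2.52 ± 0.41, the TGF-beta family ligand Bmp7 by 2.08 ± 0.32, Lif by 1.42 ± 0.24 and Csf1 by 1.16 ± 0.20. The 2 genes that fell are cytokines of activated helper cells. Il21 read -2.37, -2.25 and -1.67 against 0.46 and -0.46 (-2.05 ± 0.23) and Il2 read -0.95, -0.85 and -0.66 against -0.03 and 0.03 (-0.82 ± 0.09). Il10 was called higher (1.33 ± 0.32) but had an adjusted p of 0.196 without Tconv replicate 2.

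TGF-beta, activin and BMP signalling had 8 of 54 genes higher and 5 lower, with a list median of -0.05, and the receptors moved both ways. Tgfbr1 read 1.07, 1.27 and 1.497 against -0.06 and 0.06 (1.31 ± 0.15), and Acvr1 was higher by 0.92 ± 0.13. The coreceptor Tgfbr3 read -2.68, -2.37 and -2.22 against 0.05 and -0.05 (-2.43 ± 0.14). Acvrl1, a type I receptor of the BMP family, read -2.35, -1.98 and -1.66 against -0.08 and 0.08 (-1.98 ± 0.21), and Acvr1b was also lower (-0.84 ± 0.08). None of these groups overlapped, and all of these calls were stable.

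The list of chemoattractant receptors, which guide cells to tissues, also holds receptors of prostaglandin E2. It had 16 of 49 members higher and 1 lower (34.7%), with 8 of 17 stable. Gpr15, a homing receptor of the large intestine, read 2.60, 3.38 and 3.97 against 0.05 and -0.05 (3.30 ± 0.31). Ccr6 was higher by 2.69 ± 0.19, Ccr8 by 2.16 ± 0.30 and Ccr4 by 1.25 ± 0.20. Receptors of prostaglandin E2 were also among them, Ptger2 with 2.82 ± 0.23 and Ptger3 with 1.56 ± 0.19. Ccr7, the lymph node homing receptor, was not called (-0.36 ± 0.24).

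Integrin chains had 4 of 28 higher and 3 lower. Beside Itgb8 and Itgae, Itgb1 was higher by 1.81 ± 0.31 and Itgav, the partner of Itgb8, by 0.85 ± 0.13, while Itgb3 was lower by -0.85 ± 0.13. Itgb5 cannot be given a direction: of its probe sets, 1456195_x_at was called higher (0.59 ± 0.16) and 1456133_x_at lower (-0.83 ± 0.23). It was the only gene with probe sets called in opposite directions. The counts use its most variable probe set, 1456133_x_at, so Itgb5 is among the 3 counted lower. Other adhesion molecules had 8 of 51 higher and 2 lower, among them the tetraspanin Cd81 (1.74 ± 0.18), the hyaluronan receptor Cd44 (1.52 ± 0.19) and Icam1 (1.31 ± 0.13).

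Genes of T cell receptor signalling were called in both directions, with 9 of 80 higher, 4 lower and 67 not called. Vav2, a guanine nucleotide exchange factor, read 1.43, 2.08 and 2.29 against -0.06 and 0.06 (1.93 ± 0.21), and Themis, a regulator of T cell receptor signalling in thymocytes, read -2.02, -1.57 and -1.38 against 0.05 and -0.05 (-1.57 ± 0.22). The adaptor Grap2 was lower by -0.82 ± 0.12. These were the stable calls of the list. Among MAP kinase phosphatases and Sprouty proteins, 5 of 40 were higher and 2 lower, with Dusp4 and Spry1 (1.90 ± 0.19) stable. NF-kB signalling had 5 of 40 higher and none lower, of which Traf1 (0.96 ± 0.10) was stable.

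G protein signalling genes had 9 of 64 higher and 1 lower. Rgs1, which shortens signalling of chemoattractant receptors, read 3.72, 3.93 and 4.40 against -0.04 and 0.04 (3.98 ± 0.21), and Rgs16 was higher by 2.61 ± 0.34. The alpha subunit gene Gnaq was higher by 1.83 ± 0.16. The PI3 kinase, Akt and mTOR list had 5 of 55 higher and 3 lower. In it the phosphatase Phlpp1 was higher by 1.68 ± 0.20, while the kinase Sgk1 read -2.61, -2.40 and -2.02 against 0.15 and -0.15 (-2.32 ± 0.27) and its relative Sgk3 differed by -1.22 ± 0.19.

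Genes of adenosine and cyclic nucleotides had 10 of 88 members higher and 5 lower (17.0%). The ectoenzymes that turn ATP into adenosine were both higher, Entpd1 (CD39) at 2.74, 2.98 and 3.30 against -0.21 and 0.21 (3.02 ± 0.14) and Nt5e (CD73) at 2.52, 2.71 and 2.93 against 0.04 and -0.04 (2.73 ± 0.17). Gucy1a1, a subunit of soluble guanylate cyclase, read 2.25, 2.44 and 2.95 against -0.22 and 0.22 (2.51 ± 0.21). Pde3b, which breaks down cyclic AMP, read -4.03, -3.78 and -2.99 against -0.02 and 0.02, the opposite direction to the enzymes above. P2rx7, an ATP-gated ion channel, was higher by 2.18 ± 0.29.

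The cytoskeleton held large changes in both directions. Tiam1, an exchange factor of Rac, read 2.94, 3.23 and 3.39 against -0.28 and 0.28 (3.21 ± 0.15), and the GTPase-activating protein Arhgap20 read 2.82, 3.14 and 3.50 against -0.44 and 0.44 (3.18 ± 0.21). Arhgap29, of the same broad family, read -3.49, -3.10 and -2.64 against -0.01 and 0.01 (-3.04 ± 0.25). Of 48 myosin genes, 7 were higher and 3 lower, with Myo1e at 2.55 ± 0.21 and Myo10 at -1.52 ± 0.18. Of 76 actin regulators, 6 were higher and 5 lower, with Coro2a at 3.33 ± 0.23 and gelsolin, Gsn, at -1.43 ± 0.24.

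Metabolic lists differed in how much of them was called. Glycolysis and glucose transport had 7 of 39 higher and 3 lower (25.6%), of which the transketolase-like Tktl1 (2.61 ± 0.33) and the glucose transporter Slc2a3 (1.16 ± 0.13) were stable. In lipid metabolism 5 of 60 were higher and 3 lower, with the acyl-CoA synthetase Acsbg1 at 1.74 ± 0.24 and the fatty acid elongase Elovl7 at -2.01 ± 0.22. The mitochondrial respiratory chain had 1 of 100 called (1.0%), with a list median of 0.23. Heat shock and chaperone genes had 1 of 43 called, Wnt and Notch signalling 2 of 86 (2.33%) and ribosomal proteins 3 of 46, each a share below that of all genes. Solute carriers (24 higher, 9 lower of 368) and ion channels (14 and 5 of 209) were near the background.

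Sugar-modifying enzymes had 10 of 133 members higher and 5 lower. Gcnt1, which branches O-glycans, read 1.65, 2.58 and 3.002 against -0.30 and 0.30 (2.35 ± 0.27), and St3gal6, a sialyltransferase, read -2.67, -2.31 and -1.84 against -0.04 and 0.04 (-2.29 ± 0.18). Hs3st3b1 read -3.63, -3.61 and -3.35 against -0.02 and 0.02. Cell death genes had 11 of 49 higher and 1 lower (24.5%), among them the inflammatory caspases Casp4 (2.21 ± 0.22) and Casp1 (1.41 ± 0.19) and the proapoptotic Bid (1.01 ± 0.16). Among 45 interferon response genes, 7 were higher and 2 lower. Gbp3 was higher by 2.43 ± 0.22 and Oas2 lower by -1.32 ± 0.18.

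Genes of naive T cells were lower in part. The naive T cell list had 9 of 36 members lower and 2 higher, and its median was -0.14. Pde3b, Pdlim4, Dapl1, Tgfbr3 and Themis, given above, were among those that fell. Satb1, a chromatin organiser, read -2.32, -1.83 and -0.34 against -0.60 and 0.60 (-1.63 ± 0.45), with 1 Treg array inside the range of the Tconv arrays and an adjusted p of 0.551 without Tconv replicate 2. Lef1 (-0.79 ± 0.47), Ccr7 (-0.36 ± 0.24) and Bach2 (-0.63 ± 0.21) were not called. Of 8 markers of activated or memory T cells, 6 were higher and none lower. The lectin-like receptor Klrg1 read 2.89, 4.21 and 4.92 against -0.13 and 0.13 (3.95 ± 0.37), Ccr6 and Il2rb are given above, and Cd44 read 1.21, 1.51 and 1.996 against 0.07 and -0.07. The median over these 8 markers ran from 1.52 to 2.09 on the Treg arrays, against -0.14 and 0.14 on the Tconv arrays. It thus differed between the same groups as the genes above, and its part in their differences was not tested. In sorted bulk RNA, fewer cells of a type and less RNA per cell cannot be told apart.

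Markers of killer and innate-like T cells were lower in Treg cells. Of 8 such markers, 4 were lower and none higher, and their median ran from -1.03 to -0.69 on Treg arrays, against -0.10 and 0.10 on Tconv arrays. Klrd1, Eomes and Zbtb16 were the stable calls. The pore-forming protein Prf1 read -2.29, -2.11 and -1.88 against -0.22 and 0.22 (-2.08 ± 0.24), and the granzyme Gzmk was lower by -1.40 ± 0.17. Klrc1, the partner of Klrd1 in a receptor for nonclassical class I molecules, read -2.58, -2.41 and -2.22 against -1.25 and 1.25 (-2.39 ± 0.39), and the Tconv arrays themselves were more than 4-fold apart. Of 45 killer cell lectin receptors, 7 were lower and 1, Klrg1, higher. The NK cell gene Ncr1 was not called (-0.13 ± 0.11), nor was Tyrobp (-1.29 ± 0.41). The Tconv gate took CD4+ cells without reporters, and the part of such cells in these differences was not tested.

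Of 23 genes of MHC class II and antigen presentation, 3 were called lower, 1 higher and 19 not called, and the median of the list was 0.25. The 4 calls were each lost without 1 of the Tconv arrays. H2-Aa read -4.07, -2.56 and -1.86 against -0.95 and 0.95 (-2.78 ± 0.60). H2-Ab1 read -3.20, -2.13 and -1.20 against -0.87 and 0.87 (-2.12 ± 0.59), and H2-Eb1 read -2.58, -1.77 and -0.99 against -0.62 and 0.62 (-1.72 ± 0.43). Without Tconv replicate 2, the higher of the Tconv arrays, none of these calls remained (adjusted p = 0.288, 0.586 and 0.435). The member called higher, H2-Oa (0.91 ± 0.25), had an adjusted p of 0.294 without Tconv replicate 1. The invariant chain Cd74 was not called (-0.38 ± 0.39). H2-Eb2, a class II gene outside the list, was called lower (-0.56 ± 0.13) and was not stable to leaving out an array. Of 7 dendritic cell markers, 3 were lower and none higher, with medians of -0.59 to -0.33 on Treg arrays and -0.20 and 0.20 on Tconv arrays. Of these, Itgax read -1.31, -1.19 and -0.79 against -0.58 and 0.58. None of the 3 was stable: without Tconv replicate 2 the adjusted p was 0.251 for Itgax, 0.38 for Flt3 and 0.196 for Cd209a. Of 9 myeloid markers, Adgre1 was lower (-0.72 ± 0.19), with an adjusted p of 0.675 without the same array. Of 4 plasma cell markers, Xbp1 was higher (1.004 ± 0.21), with 0.151 without it. Of 9 B cell markers, Cd79b was higher (2.30 ± 0.24) and Blnk lower (-0.58 ± 0.12; adjusted p = 0.285 without Tconv replicate 2), while Cd79a (-0.19 ± 0.18) and Ms4a1 (-0.63 ± 0.27) were not called. No erythroid, stromal or CD8 T cell marker was called. The part of other cell types in the class II values was not tested.

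**Figure D4:**
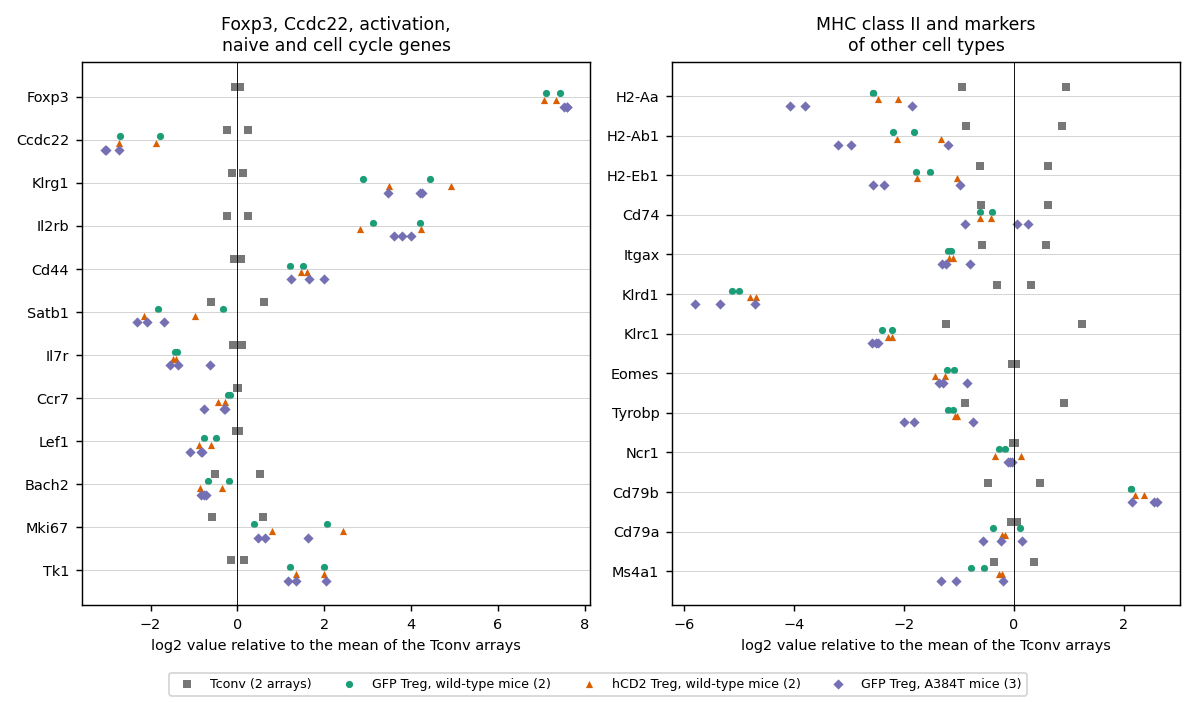
Each row is a gene, the x axis is the log2 value with the Tconv mean at 0, and each point is 1 array, coloured by group. Foxp3, Ccdc22 and genes of activation, naive cells and the cell cycle are on the left, and class II genes and markers of other cell types on the right. The Tconv arrays lie apart from each other for H2-Aa, Klrc1 and Tyrobp, and Cd79b is higher on all 7 Treg arrays while Cd79a is not.

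Other groups held single large changes. Of 24 genes of helper lineages, 8 were higher and 1, Il21, lower, among them Tox2 (1.48 ± 0.27) beside Pdcd1 and the chemokine receptors given above. Of 34 S100 proteins, annexins and galectins, 5 were higher and none lower, with S100a6 at 1.41, 2.30 and 2.58 against -0.13 and 0.13 (2.07 ± 0.29). Axon guidance genes had 8 of 77 higher and 4 lower. Beside Nrp1, the semaphorin Sema6d was higher (1.84 ± 0.29), while Rgmb, a BMP coreceptor, read -2.34, -2.10 and -1.87 against 0.23 and -0.23 (-2.12 ± 0.21) and Sema4f and Sema4a were lower (-1.55 ± 0.19 and -1.39 ± 0.13). Among 212 proteases and inhibitors, 17 were higher and 6 lower, led by the cystatin Cst7 (2.51 ± 0.23) and antithrombin, Serpinc1 (2.20 ± 0.28). Of 42 ubiquitin ligases, 6 were higher and 3 lower, with Peli2 at 1.35 ± 0.22 and Nedd4 at -1.51 ± 0.17. Of 36 tyrosine phosphatases, 6 were higher and 1 lower, and Ptpn13 read 2.01, 2.65 and 2.87 against -0.21 and 0.21 (2.57 ± 0.22). In no list were 608 of the genes called higher and 373 of those called lower, out of 14728 genes. Among 9160 probe sets with no gene name, 229 were called (2.5%), 106 of them higher, against 8.06% of genes called.

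Some called genes lay side by side. Among 18140 genes placed in RefSeq order, 11 runs of 3 or more neighbours were called in the same direction, 9 of them higher. Tnfrsf4 and Tnfrsf18 stood next to Sdf4 (0.75 ± 0.17), Cish between Mapkapk3 (1.06 ± 0.24) and Hemk1 (0.87 ± 0.14), and Gpr15 between Cpox (0.86 ± 0.24) and Cldnd1 (2.03 ± 0.43). Nrn1, which encodes neuritin, was flanked by Fars2 (0.80 ± 0.14) and F13a1 (1.05 ± 0.21). The inflammasome receptors Naip5 (3.10 ± 0.52), Naip2 (1.69 ± 0.33) and Naip6 (1.53 ± 0.22) are related genes of the same family, so their probe sets may share signal. A lower run held the class II genes H2-Ab1, H2-Aa, H2-Eb1 and H2-Eb2, given above. The other held Pole2 (-1.24 ± 0.18), Klhdc1 (-1.06 ± 0.18) and Klhdc2 (-0.93 ± 0.27). Several of these neighbours were not stable. Without Tconv replicate 2 the adjusted p was 0.181 for Sdf4, 0.333 for Mapkapk3, 0.428 for Cpox, 0.292 for Cldnd1, 0.0589 for F13a1 and 0.393 for Klhdc2. Without Tconv replicate 1 it was 0.12 for Naip2 and 0.0585 for Naip5.

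No gene was called different among the wild-type Treg groups. The F test of limma over the 3 groups called 0 of 18193 genes (0.0%), with 608 at an unadjusted p under 0.05 and a smallest adjusted p of 0.9999. These 608 are fewer than 1 in 20 of the genes tested. Groups of 2 or 3 arrays leave small differences undetectable. Deviations of GFP replicate 1 and hCD2 replicate 3 of wild-type mice correlated at 0.771, which the F test ignores. The 0 calls therefore do not show that the groups are alike. Against the same Tconv arrays, GFP Treg cells of wild-type mice had 482 genes called higher and 233 lower, hCD2 Treg cells 491 and 251, and GFP Treg cells of A384T mice, with 1 array more, 941 and 436. Over the genes called higher in the main contrast, the medians were 0.91, 0.92 and 1.12 in these groups. Those genes were chosen with these same arrays, of which A384T mice gave 3 and each other group 2, so the medians depend on that choice. The groups share the Tconv arrays, and the differences between their counts or medians were not tested.

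Spread among the Treg arrays was larger for genes that were higher. The median SD over the 7 arrays was 0.227 for genes called higher, 0.158 for those called lower and 0.166 over all genes. Cell cycle genes were uneven between arrays: the median of their 71 members ran from -0.06 to 0.79 on Treg arrays, against -0.10 and 0.10 on Tconv arrays, while 8 were called higher and 2 lower. The proliferation marker Mki67 read 0.39, 0.81 and 2.42 against -0.59 and 0.59 and was not called (1.20 ± 0.59, adjusted p = 0.28). Each Treg group held an array with a high cell cycle median: 0.72 on GFP replicate 2, 0.71 on hCD2 replicate 4 and 0.79 on replicate 2 of the A384T mice.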

How the data were processed

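RNA was measured on Affymetrix mouse GeneChip arrays (45101 probe sets). The values are log2 values as the authors deposited them, from RMA according to the submitters' processing notes; its software is not given in the sources used here. In the deposited values the 2 Tconv arrays sum to at most 1.0e-06 at every probe set, so differences between groups are kept and levels are lost. Intensity above background, and with it a filter on dim probe sets, could not be used. The number of arrays limits the precision.

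The platform annotation gave 34945 probe sets 1 gene, 932 several and 9224 none, controls included; 34741 were matched to RefSeq names by gene identifier. Each of the 18193 genes was represented by 1 probe set, the one that varied most over the 18 arrays. This choice favours probe sets that differ between the groups. Of 855 called genes with several probe sets, 340 had 2 or more called in a fit over probe sets. With probe sets averaged, 965 genes were called higher and 602 lower. Group means of all 18 arrays were fitted with limma 3.58.1 in R 4.3.3, leaving 11 residual degrees of freedom, and moderated by eBayes. The contrast is the mean of the 7 wild-type Treg arrays minus that of the Tconv arrays, called at p under 0.05 after Benjamini-Hochberg adjustment across all genes. The script was tested on simulated data. Python 3.11.15, pandas 2.3.3 and matplotlib 3.10.9 served for tables and plots.

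Named genes are the 30 largest changes in each direction among called genes whose groups do not overlap, the called list members with the largest differences, uncalled members given for comparison, genes with opposite probe sets and runs of neighbours. Ccdc22 as a pair with Foxp3 was singled out after its values were seen. The arrays compared and the gene lists were chosen with earlier results of these data known. Alternatives were the arrays in the fit, the weights and choice of Treg groups, probe sets averaged, arrays centred, a robust prior, a variance filter, a threshold on size, each array left out, and replicate numbers as a block. The result of 1 gene list is not reported here.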

Additional observations from a re-analysis of the deposited data

Results flagged for a closer look

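Among 119 values checked over the 7 Treg arrays (the named largest genes and the list medians), 3 had an array far from the other 6, and chance alone sets apart about 1 in 20. Hs3st3b1 read -3.35 on replicate 2 of the GFP Treg arrays from A384T mice, while the others ran from -3.63 to -3.55. All of these were far below both Tconv arrays. The median over MAP kinase phosphatases, Sprouty and Spred genes was -0.15 on GFP replicate 2 of the wild-type mice, while the others ran from -0.03 to 0.03. For the tyrosine phosphatase list the median was 0.15 on replicate 3 of the A384T mice, against -0.01 to 0.06 on the others. Of 9160 probe sets with no gene name, limma called 229 (2.5%) between wild-type Treg and Tconv cells, 106 of them higher. The p was adjusted over these probe sets alone. The share was larger for named features, with 2219 of 34945 probe sets of 1 gene and 8.06% of genes called. The largest increases without a gene name were 4.88 ± 0.20 at 1425470_at and 4.59 ± 0.27 at 1425145_at, of a size reached by few named genes.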

How the results depend on the processing

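Main counts were 951 higher and 515 lower. They moved by over 1.5 times with 2 Treg arrays in the contrast (GFP of wild-type mice 482 and 233, hCD2 491 and 251) and when the difference was tested against 1 on the log2 scale (limma's treat, 124 and 38). The causes were not tested. Leaving out 1 array gave 523 to 1009 higher and 219 to 517 lower. Past 1.5 times were the counts without Tconv replicate 1 (608 higher) and without Tconv replicate 2 (523 and 219). The other alternatives, from the 9 arrays alone to the more variable genes alone, gave 694 to 1099 higher and 369 to 615 lower. The count among Treg groups was 0 in every fit run. No label says that equal replicate numbers share animals. For Tconv and GFP Treg arrays of wild-type mice alone, the replicate block gave 2236 higher and 1111 lower and no block 149 and 47, and the cause was not tested. With a block, 0 genes differed between the GFP groups, and no block was fitted for the hCD2 arrays. Among 509 named genes in 8144 combinations with a setting, 1 reversed: Itgb5, at 0.11 with probe sets averaged, by construction of the mean of opposite probe sets. Of the 509, 224 lost their call without Tconv replicate 2, 170 without Tconv replicate 1, 221 with GFP arrays of wild-type mice alone and 217 with hCD2 arrays alone. Of 944 list medians under a setting, 77 moved. The number of Tconv arrays, 2, limits every p, and signal over background is unknown.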
